A study of Homo sapiens with 60 samples.

Results

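The 7 mitochondrially encoded subunits of complex I, MT-ND1, MT-ND2, MT-ND3, MT-ND4L, MT-ND4, MT-ND5 and MT-ND6, were followed across all 20 treatment groups of an RNA sequencing study in HT29, an established human cell line of colorectal adenocarcinoma. They were chosen by gene name, with no measured value used, and all 7 were found among the 60675 genes of the deposited count table, 37 of which are encoded in mitochondrial DNA. Cells were profiled 24 h after treatment, in groups of 3 libraries. Vehicle cells received DMSO (0.1% in the sample labels, 2% in the series text) and positive-control cells received 10 µM wortmannin, an inhibitor of phosphoinositide 3-kinase. The other 18 groups received water extracts of 6 herbal medicines. Zingiberis Rhizoma Recens (fresh ginger), Zingiberis Rhizoma (ginger), Pinelliae Tuber, Scutellariae Radix and Zizyphi Fructus were each given at 500, 100 and 20 µg/mL. For Coptidis Rhizoma the doses were 290, 58 and 11.6 µg/mL, the highest being its IC20 by the rule in the series text. They are called high, medium and low below. All data come from this 1 line, and nothing in the labels says that the 3 libraries of a group were separate cultures. The p-values therefore rest on a spread between libraries that may be technical.

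Complex I, or NADH:ubiquinone oxidoreductase, takes electrons from NADH, passes them to ubiquinone and pumps protons across the inner mitochondrial membrane. Its hydrophobic membrane arm is built around the mitochondrially encoded subunits, and the remaining subunits are encoded in the nucleus. MT-ND1 lies where the membrane arm meets the peripheral arm, next to the site where ubiquinone binds. MT-ND3, MT-ND4L and MT-ND6 belong to the adjoining part of the membrane arm, while MT-ND2, MT-ND4 and MT-ND5 are its antiporter-like subunits. Mitochondrial DNA is transcribed from both strands as long precursors that are cut, largely at transfer RNAs, into ribosomal RNAs, messenger RNAs and transfer RNAs. Coptidis Rhizoma is known for berberine and related alkaloids, whose content in the extract was not analysed here.

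All positions are on mitochondrial DNA (chrM) of GRCh38, in GENCODE 29. On the strand of the plus coordinates lie MT-ND1 (ENSG00000198888, chrM:3307-4262), MT-ND2 (ENSG00000198763, chrM:4470-5511), MT-ND3 (ENSG00000198840, chrM:10059-10404), MT-ND4L (ENSG00000212907, chrM:10470-10766), MT-ND4 (ENSG00000198886, chrM:10760-12137) and MT-ND5 (ENSG00000198786, chrM:12337-14148). They are called the 6 heavy-strand members below, after the strand from which they are transcribed. MT-ND6 (ENSG00000198695, chrM:14149-14673) lies on the opposite strand and directly adjoins MT-ND5, with 0 bp between the annotated genes. Each member is a single exon. The last bases of the 7 reading frames, from the GENCODE 29 transcripts, are shown because they separate the members by how their messages end. Capitals mark the encoded bases of the stop codon.
MT-ND1: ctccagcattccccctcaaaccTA
MT-ND2: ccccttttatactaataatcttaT
MT-ND3: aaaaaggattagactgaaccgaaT
MT-ND4L: aacctaaacctactccaatgcTAA
MT-ND4: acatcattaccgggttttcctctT
MT-ND5: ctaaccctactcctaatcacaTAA
MT-ND6: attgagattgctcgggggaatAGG
MT-ND1, MT-ND2, MT-ND3 and MT-ND4 encode only the first 1 or 2 bases of a stop codon, which the poly(A) tail completes. MT-ND4L and MT-ND5 carry a complete TAA, and the frame of MT-ND6 ends in AGG. MT-ND6 held 35.6% G, against 9.5 to 12.1% in the other members. MT-ND4L and MT-ND4 are read from 1 shared messenger RNA and overlap by 7 bp (capitals, chrM:10733-10793, plus strand), so reads over the junction cannot be assigned to either gene with certainty.
MT-ND4L to MT-ND4: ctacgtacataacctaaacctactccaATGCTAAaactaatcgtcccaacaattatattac

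Libraries held 11.1 to 34.4 M counts (M, 1e6), with a median of 23.4 M, and every member had at least 2857 counts in every library. All 7 passed the filter on low counts. The epithelial markers EPCAM, CDH1, KRT8, KRT18, KRT20, VIL1 and CDX2 were present in all 60 libraries, with a summed level of 9988 to 13648 counts per 1e6 (CPM). Of 7 markers of blood, stromal and endothelial cells, CD3E was at 0 in 57 libraries, COL1A2 in 58, PTPRC in 38 and VWF in 28. CD68 (3.68 to 11.3 CPM), COL1A1 (0.869 to 1.89 CPM) and PECAM1 (0.388 to 2.37 CPM) were at 0 in none, and the list summed to 6.27 to 14.7 CPM. Sample codes placed Coptidis Rhizoma and Zizyphi Fructus in 1 set, both gingers in another, Pinelliae Tuber and Scutellariae Radix in another, and vehicle and wortmannin each in a set of their own. The labels do not say what a set is. Treatment and set cannot be told apart in any comparison with vehicle, whereas the doses of each extract share a set. Earlier results of these data had set apart 4 libraries, namely vehicle 1, fresh ginger low 1, ginger high 2 and Zizyphi Fructus high 3, which leaves 47 libraries outside Coptidis Rhizoma without them. The rule that set them apart is not given here. They include the highest MT-ND6 (fresh ginger low 1) and the lowest MT-ND4L (Zizyphi Fructus high 3) outside Coptidis Rhizoma. Ranges and fits without them thus depend in part on that choice. Genes of ribosomal proteins took 4.95 to 8.23% of counts in the 51 libraries outside Coptidis Rhizoma, the highest value being in the group of Zizyphi Fructus high.

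Over the 51 libraries outside Coptidis Rhizoma, the highest level of a member was from 1.59 (MT-ND2) to 3.78 times (MT-ND4L) its lowest. Per kb of gene length, MT-ND4 had the highest median (7363 CPM per kb, range 5671 to 10944), followed by MT-ND3 (5185, range 4036 to 7275). MT-ND1 (3822, range 2618 to 5431), MT-ND2 (3696, range 2900 to 4616) and MT-ND4L (3291, range 1315 to 4967) came next, and their ranges overlapped. MT-ND5 was lower (1839 CPM per kb, range 1078 to 2214), and MT-ND6 was lowest (714, range 535 to 1838). The ranges of MT-ND4 and MT-ND5 did not overlap, although the genes are neighbours on the same strand. The range of MT-ND4 overlapped with that of MT-ND3, and the range of MT-ND5 with that of MT-ND6. The second overlap came from libraries that stood apart: in the 47 others MT-ND5 was at least 1498 and MT-ND6 at most 1153 CPM per kb.

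The spread between libraries of a group differed between the members. The median coefficient of variation within the groups outside Coptidis Rhizoma was 8.45% for MT-ND2, 9.0% for MT-ND3 and 19.1% for MT-ND6, whose largest value, 55.4%, was that of fresh ginger low. There, MT-ND6 had 965, 349.5 and 461 CPM, the first value being from a library that stood apart. Replicate 1 also had the highest MT-ND6 of fresh ginger medium (605 CPM) and high (444.5 CPM), and these libraries did not stand apart. MT-ND4 was likewise highest in replicate 1 of fresh ginger high (12445 CPM), medium (15081 CPM) and low (13514.5 CPM). Whether replicates of a number share an effect on the members was not tested. In vehicle MT-ND6 had 721, 427 and 345 CPM, again with the highest value in the library that stood apart. Zizyphi Fructus high 3 had the lowest MT-ND4L (390.4 CPM), MT-ND4 (7814 CPM) and MT-ND5 (1953 CPM) of the 51 libraries, and the highest MT-ND3 (2517 CPM). The part of these 4 libraries in the spread was not tested beyond leaving them out.

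**Figure D1:**
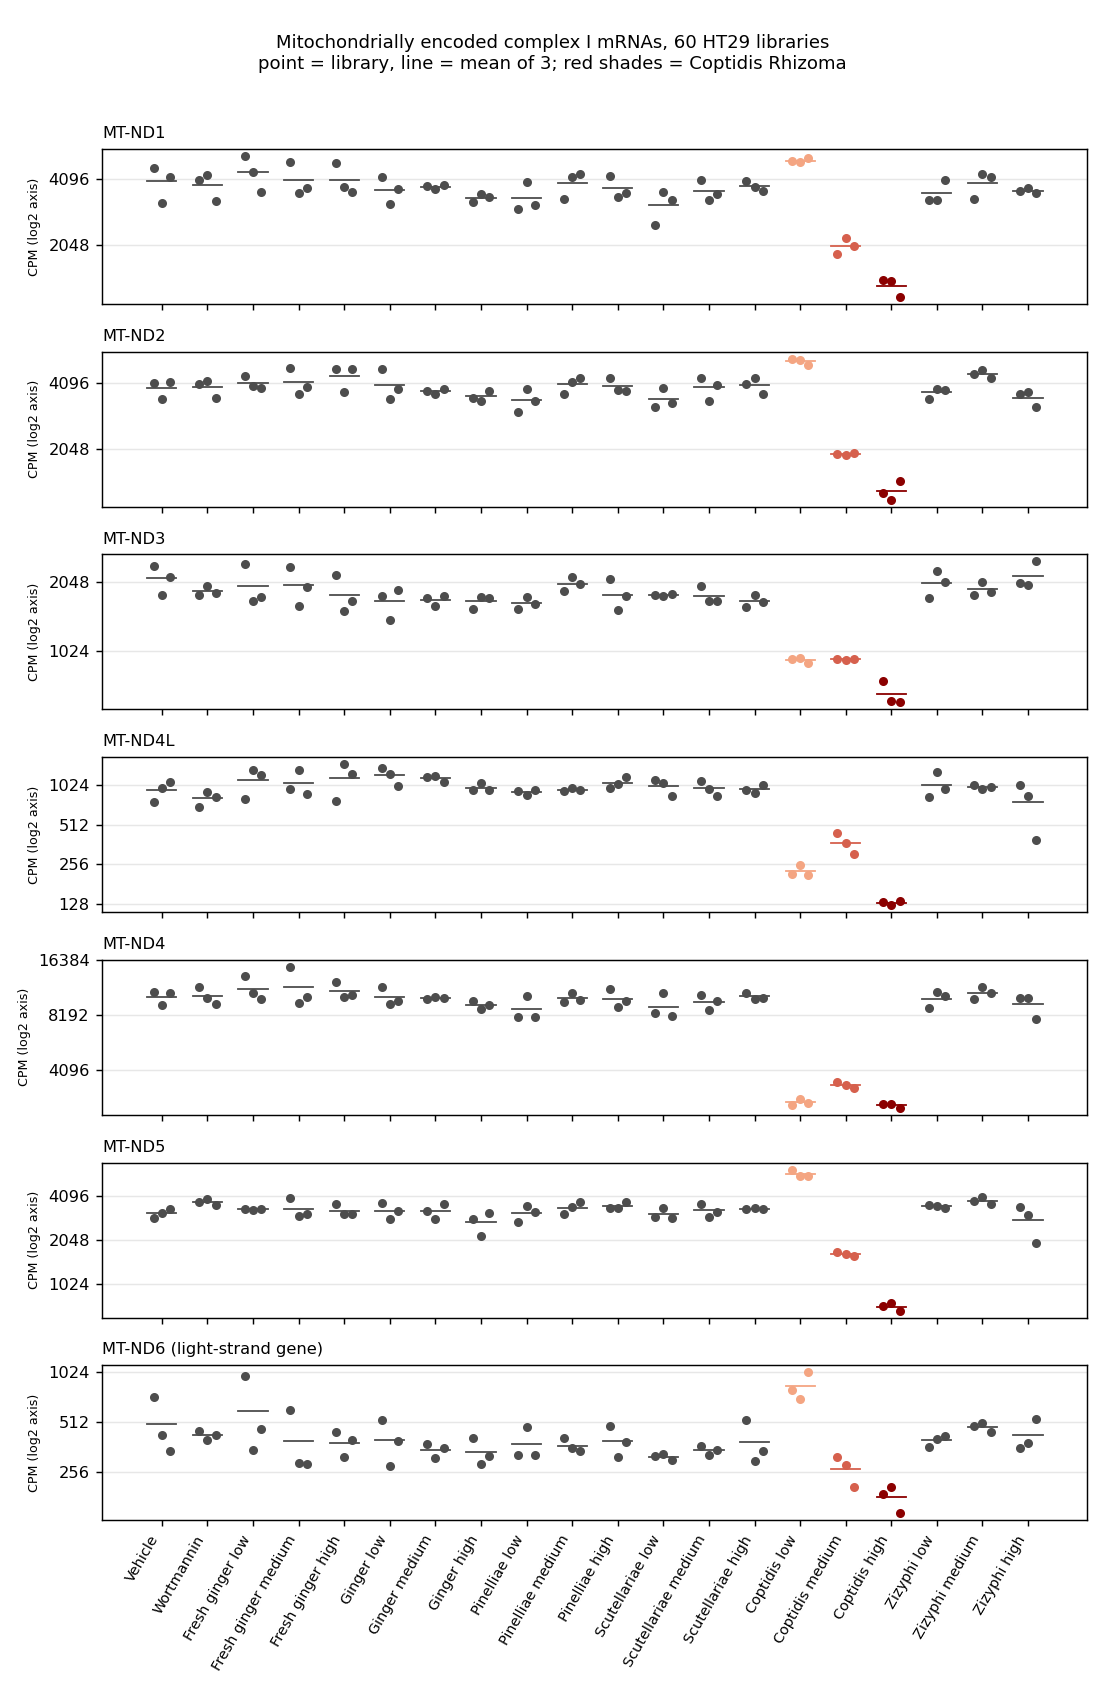
Counts per 1e6 (CPM, log2 axis) of each complex I member in each of the 60 libraries, by treatment group; points are libraries, lines are means of 3, and red shades mark Coptidis Rhizoma. The 17 other groups stay near vehicle for every member, whereas MT-ND3, MT-ND4L and MT-ND4 are low at all 3 Coptidis Rhizoma doses and MT-ND1, MT-ND2 and MT-ND5 only at its medium and high doses.

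In none of the 25 comparisons without Coptidis Rhizoma was a member called by the quasi-likelihood test of edgeR at an adjusted p under 0.05. Of these 175 tests of a member, 14 had an unadjusted p under 0.05, and the smallest adjusted p was 0.0956. DESeq2 also called 0, with 16 at an unadjusted p under 0.05 and a smallest adjusted p of 0.0697. Log2 changes ran from -0.71 to 0.43. The smallest adjusted p belonged to MT-ND2 in Scutellariae Radix high against low, with a log2 change of 0.27. MT-ND5 with wortmannin had a log2 change of 0.21 (adjusted p = 0.242), and MT-ND3 with Scutellariae Radix high -0.33 (adjusted p = 0.124). Without the filter on low counts, with 34683 genes tested, edgeR called 52 of the 175 (14 higher, 38 lower) at log2 changes within 0.03 of those with the filter. The count of 0 therefore depends on that filter, and the changes called without it were between -0.70 and 0.40. The share of all genes called without the filter is not given here for these comparisons, so the 52 are not read as a result about the members. Approximate standard errors shrank in that fit. For MT-ND6 in Coptidis Rhizoma low against vehicle the error was 0.30 with the filter and 0.06 without, at changes of 0.75 and 0.77.

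These counts of 0 stand beside very different shares of all 16608 genes called. Wortmannin changed 20.6% of genes, and Scutellariae Radix changed 20.3% at the high, 6.64% at the medium and 0.126% at the low dose, all against vehicle. High against low dose of Scutellariae Radix changed 16.3% of genes, high against medium 5.09% and medium against low 3.35%. Fresh ginger high changed 2.08% against vehicle and 1.79% against its low dose, and its other doses 0%. For ginger the shares were 0.789% at the high, 0.012% at the medium and 0% at the low dose, and 0.915% for high against low. Pinelliae Tuber changed 0.187, 0.0482 and 0.012% from high to low dose, and 0.0421% for high against low. For Zizyphi Fructus these were 0.0181, 0 and 0.012%, and 0.0482% for high against low. The difference between the gingers in their high-against-low change was called for 0% of genes, and that between Scutellariae Radix and Pinelliae Tuber for 6.32%, in both cases with 0 of 7 members (unadjusted p under 0.05 for 0 as well).

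With wortmannin, nuclear-encoded subunits of complex I were lower than in vehicle while 0 of the 7 members was called (0 also at an unadjusted p under 0.05, edgeR). Of 37 nuclear-encoded subunits tested, 21 fell (10.8% of all genes were lower), with a median log2 change of -0.39 against 0.005 over all genes. NDUFB8, an accessory subunit of the membrane arm, fell by 0.51 ± 0.10 on the log2 scale (adjusted p = 0.000162, edgeR). Here and below, ± beside a log2 change is an approximate standard error, taken as the size of the change over the root of its F statistic. The median over the 7 members was -0.11, and their changes ran from -0.28 to 0.21. Against the same vehicle, the 37 nuclear-encoded subunits also had a median of -0.21 with Scutellariae Radix high and -0.21 with Coptidis Rhizoma low. Wortmannin and vehicle were in sets of their own, so treatment and set cannot be told apart here. Of the factors that make, process or degrade mitochondrial RNA, 7 of 21 fell with wortmannin. SUPV3L1, a helicase of mitochondrial RNA decay, fell by 0.20 ± 0.05 (adjusted p = 0.00242) and SLIRP, a partner of LRPPRC that stabilises mitochondrial messages, by 0.54 ± 0.14 (adjusted p = 0.00464). The summed epithelial markers were 12606 to 13203 CPM with wortmannin and 10985 to 12560 CPM in vehicle. Singly they did not all move alike: VIL1 (0.43), KRT20 (0.19) and CDH1 (0.17) were called higher by edgeR and EPCAM (-0.29) lower. The markers of other cells summed to 13.8 to 14.1 CPM with wortmannin and 8.70 to 11.8 CPM in vehicle, and CD68 was higher, by 0.55 ± 0.15 (adjusted p = 0.00743). The part of these markers in the changes was not tested.

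Coptidis Rhizoma lowered all 7 members at the high dose, 6 at the medium dose and 3 at the low dose, at which MT-ND5 rose. At the high dose 53.8% of all genes were called against vehicle, 27.1% lower, so the count of 7 of 7 stands against a background in which a gene called lower was common. The members' median log2 change was -1.76, against -0.016 over all genes. At the medium dose 6.32% of genes were called, 2.69% lower, and the members' median was -0.96. At the low dose 0.397% of genes were called, 0.175% lower and 0.223% higher, and 4 of the 66 genes called were members. Epithelial markers summed to 9988 to 10739 CPM at the high, 10135 to 10848 CPM at the medium and 10628 to 11224 CPM at the low dose, against 10985 to 12560 CPM in vehicle, and the markers of other cells to 10.8 to 11.98, 12.3 to 14.7 and 11.1 to 11.4 CPM, against 8.70 to 11.8 CPM. At the high dose VIL1 (-0.46), KRT18 (-0.36) and PECAM1 (-1.55) were called lower and KRT20 (0.25) and CDX2 (0.49) higher, at the medium dose CDX2 (0.43) and CD68 (0.56) higher, and at the low dose 0 of either list was called by edgeR. Genes of ribosomal proteins took 6.43 to 7.24% of counts at the high dose and 4.95 to 5.85% in the 47 libraries. The part of these genes in the result was not tested. As these were bulk libraries, fewer cells holding an RNA and less of it in each cell cannot be told apart.

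**Figure D2:**
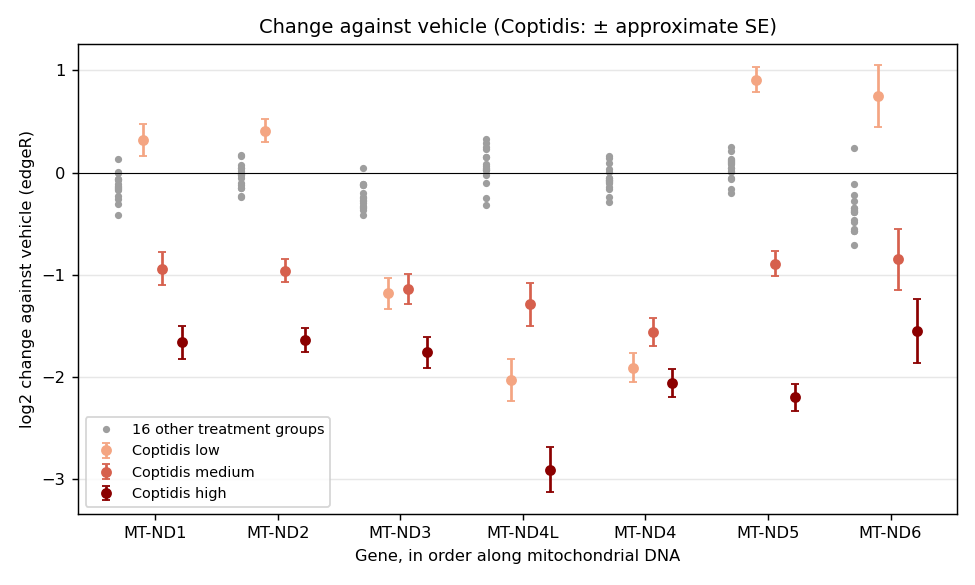
Log2 change against vehicle (edgeR) of each member, in order along mitochondrial DNA; grey points are the 16 other treatment groups and red shades are the Coptidis Rhizoma doses with approximate standard errors. The grey points stay between -0.71 and 0.33, while at the low Coptidis Rhizoma dose MT-ND3, MT-ND4L and MT-ND4 lie between -2.03 and -1.18 and MT-ND5 lies at 0.91.

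MT-ND1 and MT-ND2, the first 2 members along the heavy-strand transcript, fell only from the medium dose on. MT-ND1 had 4576, 3177 and 4174 CPM in the vehicle libraries and 4922, 4852 and 5061 CPM at the low dose. It had 1854, 2204 and 2011 CPM at the medium dose and 1405, 1401 and 1182 CPM at the high dose. All low-dose libraries were above all vehicle libraries, but within the range of the 51 libraries outside Coptidis Rhizoma (above all of the 47 without those that stood apart), and medium and high doses did not overlap with any of these. The log2 change from vehicle was 0.32 ± 0.16 at the low dose (adjusted p = 0.461), -0.94 ± 0.16 at the medium dose (adjusted p = 5.91e-05) and -1.66 ± 0.16 at the high dose, 3.17-fold lower (adjusted p = 7.53e-12).

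MT-ND2, the first of the antiporter-like subunits, had 4104, 3472 and 4140.1 CPM in vehicle. The low dose gave 5287, 5215 and 4949 CPM, the medium dose 1957, 1939 and 1981 CPM and the high dose 1292, 1211 and 1468 CPM. Every low-dose library was above, and every medium- and high-dose library below, all 51 libraries outside Coptidis Rhizoma. Against vehicle the low-dose change of 0.41 ± 0.11 was not called (adjusted p = 0.117), although DESeq2 called it (adjusted p = 0.0318). The medium dose lowered MT-ND2 by a log2 change of -0.96 ± 0.11 (adjusted p = 2.36e-08) and the high dose by -1.64 ± 0.12 (adjusted p = 1.05e-16). The ratio of MT-ND1 to MT-ND2 counts averaged 0.961 at the low, 1.03 at the medium and 1.02 at the high dose, within the 0.731 to 1.18 of the libraries outside Coptidis Rhizoma (to 1.10 in the 47). Singly, 1 medium-dose and 1 high-dose library were above the highest of the 47.

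MT-ND3, MT-ND4L and MT-ND4, which follow each other on the heavy-strand transcript, were already low at the lowest dose. MT-ND3 had 2411, 1801 and 2151 CPM in vehicle, and 948, 951 and 905 CPM at the low dose. The medium dose gave 946, 929.6 and 946 CPM and the high dose 757, 620.3 and 610.3 CPM. All 9 libraries were below all 51 others. The log2 change from vehicle was -1.18 ± 0.15 at the low (adjusted p = 1.58e-06), -1.14 ± 0.15 at the medium (adjusted p = 6.05e-07) and -1.76 ± 0.15 at the high dose (adjusted p = 3.54e-13). Low and medium dose differed by 0.04 with a 95% interval of -0.26 to 0.33.

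MT-ND4L had the largest fall of the members at the high dose. Vehicle libraries had 757, 981 and 1079 CPM, low-dose libraries 218, 253 and 212 CPM, medium-dose libraries 443, 370.0 and 307 CPM, and high-dose libraries 133, 126 and 135 CPM. The order was thus vehicle, medium, low and high, with no overlap between these 4 groups, though the step from low to medium, 0.74 ± 0.21, was not called (adjusted p = 0.0644; 0.00686 without the 4 libraries that stood apart and 0.0154 in DESeq2, both called). At the medium dose 1 of the 3 libraries lay within the range of the 51 others, whose lowest value came from a library that stood apart (Zizyphi Fructus high 3), and all 3 were below the 47. Against vehicle the log2 change was -2.03 ± 0.21 at the low (adjusted p = 1.24e-08), -1.29 ± 0.21 at the medium (adjusted p = 3.13e-05) and -2.91 ± 0.22 at the high dose, 7.53-fold lower (adjusted p = 8.69e-15).

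MT-ND4, the most abundant member in vehicle, had 10943, 9313 and 10792 CPM there. At the low dose it had 2652, 2829.5 and 2719.7 CPM, at the medium dose 3548, 3387 and 3288 CPM and at the high dose 2671, 2662 and 2546 CPM. All 9 libraries were below the 51 outside Coptidis Rhizoma. The log2 change from vehicle was -1.91 ± 0.14 at the low (adjusted p = 7.84e-14), -1.56 ± 0.14 at the medium (adjusted p = 9.06e-12) and -2.06 ± 0.14 at the high dose (adjusted p = 7.02e-17). High and low dose differed by -0.15, with a 95% interval of -0.41 to 0.12 (adjusted p = 0.379). The step from medium to high dose, -0.50 ± 0.14, was called (adjusted p = 0.00231), and that from low to medium, 0.35 ± 0.14, was not (adjusted p = 0.328). A fit of only the libraries compared called the difference between high and low, at -0.17 (adjusted p = 0.00759), and that between medium and low (adjusted p = 4.87e-06). Either way the difference between the lowest and the highest dose was small beside the fall from vehicle.

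MT-ND5, the antiporter-like subunit at the far end of the membrane arm, moved in opposite directions at the low and the high dose. Vehicle libraries had 2916, 3116 and 3327 CPM. At the low dose the level was 6214, 5653 and 5624 CPM, above all 51 libraries outside Coptidis Rhizoma, and the log2 change from vehicle was 0.91 ± 0.12 (1.88-fold higher, adjusted p = 3.55e-06). The medium dose gave 1699, 1634 and 1592 CPM and the high dose 719, 759 and 674 CPM, all below those 51 libraries. The changes from vehicle were -0.89 ± 0.12 (adjusted p = 1.2e-06) and -2.20 ± 0.13 (adjusted p = 2.64e-19). From low to high dose MT-ND5 fell 8.64-fold, the largest change with dose of the 7 members.

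MT-ND6, the member on the other strand, fell from low to high dose as MT-ND5 did, with a larger error. At the low dose it had 799, 702 and 1013 CPM, at the medium dose 315, 284 and 208 CPM and at the high dose 191, 208 and 145 CPM, against 721, 427 and 345 CPM in vehicle. The vehicle and low-dose libraries overlapped, and all high-dose libraries were below all vehicle libraries and below the 51 others. All 3 low-dose libraries were above the 47 without those that stood apart. Against vehicle only the high dose was called, with a log2 change of -1.55 ± 0.31 (adjusted p = 4.11e-05), or -1.15 ± 0.31 without vehicle 1 (adjusted p = 0.00231). The low-dose change of 0.75 ± 0.30 (adjusted p = 0.382) became 1.15 ± 0.28 without the 4 libraries that stood apart, which was called (adjusted p = 0.0466). The medium-dose change of -0.85 ± 0.30 (adjusted p = 0.0848) became -0.46 ± 0.31 without vehicle 1 (adjusted p = 0.597) and was called without vehicle 3, at -1.07 (adjusted p = 0.0413). The library kit keeps the strand, but whether the counting used it is not given in the sources used here, so RNA from MT-ND6 and antisense RNA of the other strand might be counted together.

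Within Coptidis Rhizoma, where all doses belong to 1 set, 6 of 7 members fell from low to high dose (52.4% of genes called, 25.3% lower). The members' median log2 change was -1.98, against 0.001 over all genes. MT-ND1 fell by 1.98 ± 0.16, MT-ND2 by 2.05 ± 0.12, MT-ND3 by 0.59 ± 0.15, MT-ND4L by 0.88 ± 0.21, MT-ND5 by 3.11 ± 0.13 and MT-ND6 by 2.30 ± 0.31 on the log2 scale, with adjusted p-values of 6.25e-14, 7.08e-20, 0.00111, 0.000496, 2.81e-24 and 4.67e-08. From low to medium dose 4 fell, MT-ND1, MT-ND2, MT-ND5 and MT-ND6, when only 1.3% of genes were called and 0.355% were lower. From medium to high dose 6 fell, all but MT-ND6 (46.5% of genes called, 22.2% lower). MT-ND1, MT-ND2 and MT-ND5 thus passed the test at both steps, MT-ND3, MT-ND4L and MT-ND4 at the upper one and MT-ND6 at the lower one. For MT-ND6 the upper step, -0.69 ± 0.30 (adjusted p = 0.0586), was also called without the 4 libraries that stood apart (adjusted p = 0.0169) and with a replicate block (adjusted p = 0.0328). Whether the 2 steps differ within a gene was not tested.

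**Figure D3:**
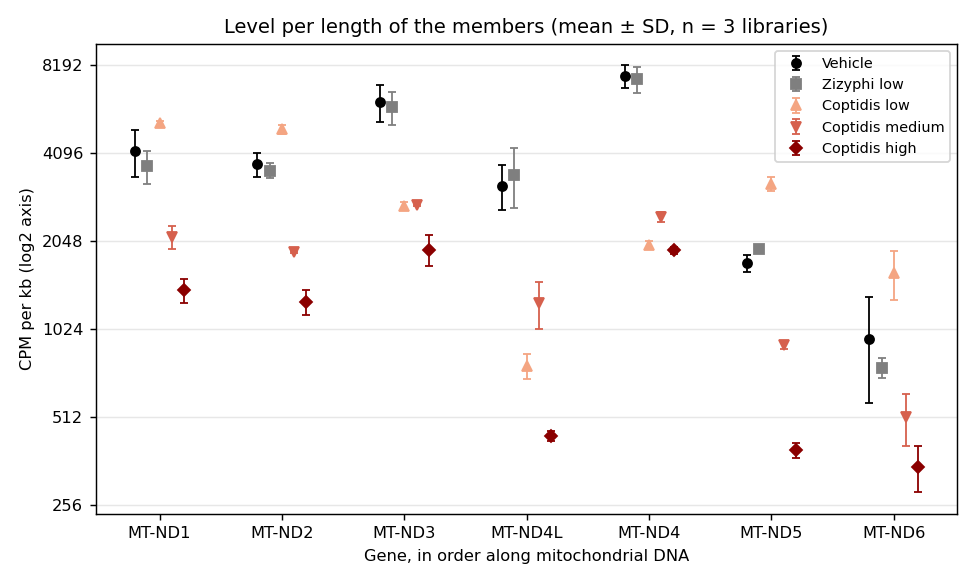
Level of each member in CPM per kb of gene length (log2 axis; mean ± SD of 3 libraries) in vehicle, Zizyphi Fructus low and the 3 Coptidis Rhizoma doses, with genes in order along mitochondrial DNA. Vehicle and Zizyphi Fructus low nearly coincide, and the low Coptidis Rhizoma dose lies above them for MT-ND1, MT-ND2, MT-ND5 and MT-ND6 and below them for MT-ND3, MT-ND4L and MT-ND4.

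The order of the members by level therefore changed at the low dose. Per kb, vehicle had its highest level in MT-ND4, and the low dose of Coptidis Rhizoma had MT-ND1, MT-ND2, MT-ND3 and MT-ND5 above MT-ND4, as the plot of levels per kb shows. MT-ND4 made up 41.6% ± 0.198 (SD, n = 3) of the counts of the 7 members in vehicle, 38.8 to 46.2% in the 51 libraries outside Coptidis Rhizoma, and 13.2% ± 0.616 at the low dose. MT-ND5 made up 12.6% ± 1.48 in vehicle and 28.2% ± 1.15 at the low dose.

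Ratios between members of the same library need no scaling between libraries and gave the same picture. MT-ND4 had 2.50 to 4.06 counts per count of MT-ND5 in the 51 libraries outside Coptidis Rhizoma. The ratio was 0.427, 0.501 and 0.484 at the low dose, 2.09, 2.07 and 2.07 at the medium dose and 3.71, 3.51 and 3.78 at the high dose. Low and medium doses were thus below every other library, and the high dose was back inside their range although both genes were low. MT-ND3 per count of MT-ND5 was 0.161 ± 0.00789 (SD, n = 3) at the low dose, against 0.453 to 1.29 outside Coptidis Rhizoma. The upper end came from a library that stood apart. In the 47 others this ratio was at most 0.6575, and all 3 high-dose libraries were above that. MT-ND4L per count of MT-ND4 was 0.0832 ± 0.00579 at the low and 0.109 ± 0.0158 at the medium dose, within the range outside Coptidis Rhizoma. At the high dose it was 0.0499, 0.0472 and 0.0531, near the lowest value of the 51 others, which came from a library that stood apart (Zizyphi Fructus high 3), and below the 0.0603 to 0.144 of the 47.

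**Figure D4:**
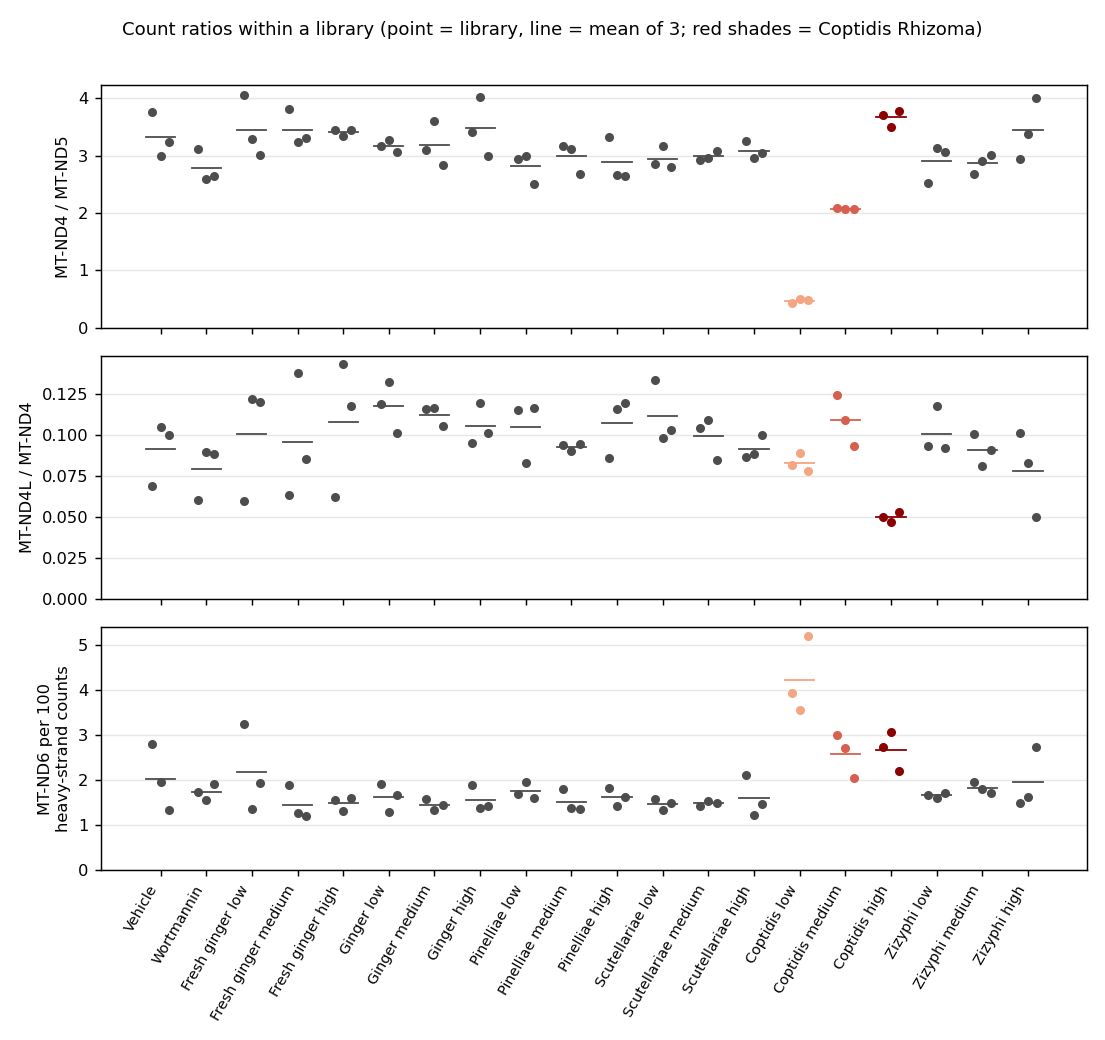
Ratios of counts within each of the 60 libraries: MT-ND4 over MT-ND5 (top), MT-ND4L over MT-ND4 (middle) and MT-ND6 per 100 counts of the 6 heavy-strand members (bottom); points are libraries, lines are means of 3. MT-ND4 over MT-ND5 is 0.427 to 0.501 at the low Coptidis Rhizoma dose and at least 2.50 in the libraries outside Coptidis Rhizoma, and MT-ND6 per 100 is highest at the low Coptidis Rhizoma dose.

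Summed, the 7 members took 2.64, 2.23 and 2.60% of the counts in the vehicle libraries, and the 51 libraries outside Coptidis Rhizoma had 1.95 to 3.27% (median 2.42%). Coptidis Rhizoma had 2.10, 2.05 and 2.05% at the low, 1.08, 1.08 and 1.03% at the medium and 0.717, 0.699 and 0.676% at the high dose. The low-dose sum lay inside the range of the other libraries with MT-ND5 higher and MT-ND4 lower than in vehicle. On the log2 scale the sum fell by 1.567 from low to high dose (exact permutation test of the 9 libraries over 3 doses, two-sided, p = 0.00119, the smallest that 1680 relabellings can give; 0.00714 adjusted over 6 extracts). For the other 5 extracts the difference lay between -0.152 and 0.183, with adjusted p of 0.241 or more in the same exact test. Without ginger low 2 the ginger difference became -0.233 (exact permutation test, adjusted p = 0.0375). Without Pinelliae Tuber low 2 that of Pinelliae Tuber became 0.286 (exact permutation test, adjusted p = 0.134), and without Scutellariae Radix low 2 that of Scutellariae Radix 0.266 (exact permutation test, adjusted p = 0.0643).

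The balance of the strands was followed as MT-ND6 per 100 counts of the heavy-strand members. It was 3.95, 3.56 and 5.20 at the low dose of Coptidis Rhizoma, 3.01, 2.71 and 2.05 at the medium and 2.73, 3.07 and 2.20 at the high dose. The 51 other libraries had 1.20 to 3.25 with a median of 1.60, so all low-dose libraries were above them and the other doses were within their range. The upper end of that range came from libraries that stood apart. In the 47 others the ratio was at most 2.12, and all 3 high-dose and 2 of 3 medium-dose libraries were above it. From low to high dose the log2 ratio fell by 0.662 (exact permutation test, p = 0.0429, 0.257 adjusted over 6 extracts), which is not past 0.05 after adjustment. With all 12 heavy-strand protein genes as denominator it fell by 1.336 (exact permutation test, p = 0.00833, adjusted p = 0.05). With the 6 members as denominator, no other extract had an adjusted p under 0.664. Against its neighbour MT-ND5 alone, the ratio of MT-ND6 was 0.144 ± 0.0311 (SD, n = 3) at the low and 0.252 ± 0.0315 at the high dose, the opposite direction.

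Coptidis Rhizoma was also set against Zizyphi Fructus of the same set and dose level, a comparison chosen after seeing the data, whose doses in µg/mL differ. All 7 members were lower at the high level (54.9% of genes called, 28.2% lower), 6 at the medium level (6.2% called, 2.57% lower), and 3 were lower and 2 higher at the low level (0.241% called, 0.0783% lower and 0.163% higher). At the low level MT-ND3 changed by -1.06 ± 0.15, MT-ND4L by -2.11 ± 0.21, MT-ND4 by -1.83 ± 0.14, MT-ND5 by 0.80 ± 0.12 and MT-ND2 by 0.53 ± 0.11, with adjusted p-values (edgeR) of 1.57e-05, 4.66e-09, 3.72e-13, 5.29e-05 and 0.014. MT-ND2, not called against vehicle, was thus called within the set. The 3 Zizyphi Fructus low libraries had MT-ND5 at 3543, 3508 and 3395 CPM and MT-ND4 at 8931, 10962 and 10386 CPM, close to vehicle. The high-against-low change differed from that of Zizyphi Fructus for 5 members (41.4% of genes called, 21.1% lower) and from that of Scutellariae Radix for 6 (38.8% called, 17.8% lower). MT-ND4 was in neither count, with -0.09 against Zizyphi Fructus and -0.39 against Scutellariae Radix. Without Zizyphi Fructus high 3, which stood apart, MT-ND4L also differed from Zizyphi Fructus, by -0.77 (adjusted p = 0.0175).

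The 6 other proteins of mitochondrial DNA, subunits of cytochrome c oxidase, cytochrome bc1 and ATP synthase, were lower than vehicle at every Coptidis Rhizoma dose. MT-CO1, a cytochrome c oxidase subunit, changed by -1.88 ± 0.09 at the high dose (adjusted p = 7.12e-25) and by -1.23 ± 0.08 at the medium one (adjusted p = 1.61e-16). At the low dose the median log2 change of the 6 was -1.58, and MT-CO3, of the same complex, changed by -1.72 ± 0.12 (adjusted p = 2.03e-15). MT-CYB, cytochrome b, the next protein gene after MT-ND6 along mitochondrial DNA, had the smallest fall of the 6, -0.54 ± 0.12 (adjusted p = 0.0138). In counts, the 7 members per count of these 6 genes came to 0.860 ± 0.0350 (SD, n = 3) at the low dose, against 0.391 to 0.525 outside Coptidis Rhizoma. At the high dose the ratio, 0.406 ± 0.0145, was within that range, with 1 of the 3 libraries below the lowest of the 47 (0.403).

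Both ribosomal RNAs of mitochondrial DNA, which are read upstream of MT-ND1, rose at the low and medium doses. MT-RNR1 changed by 3.57 ± 0.09 at the low and 4.41 ± 0.09 at the medium dose (adjusted p = 1.52e-34 and 4.63e-38), and MT-RNR2 by 2.50 ± 0.08 and 2.82 ± 0.08 (adjusted p = 4.05e-30 and 3.06e-32). At the high dose MT-RNR1 was still higher, by 0.89 ± 0.08 (adjusted p = 2.59e-13), and MT-RNR2 changed by 0.07 ± 0.08 (adjusted p = 0.441). Together they took 7.55% ± 0.159 (SD, n = 3) of the counts at the low, 10.0% ± 0.432 at the medium and 1.44% ± 0.0684 at the high dose, and 1.02 to 1.40% outside Coptidis Rhizoma. The labels name a messenger RNA library but not how messages were selected, and the amount of a ribosomal RNA and its capture in the library cannot be told apart. All 37 mitochondrially encoded genes took 12.02% ± 0.212 of counts at the low and 3.85% ± 0.124 at the high dose, and 9.31% ± 0.678 in vehicle. With library sizes taken from nuclear genes only, the counts of members called at the 3 doses were the same.

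The nuclear-encoded subunits of complex I had smaller changes than the members. At the low dose 0 of 37 were called in edgeR, and their median log2 change was -0.21. Against vehicle, 15 of 37 were lower and 0 higher at the high dose, at a background of 27.1% of genes lower. NDUFA2, an accessory subunit, then changed by -0.76 ± 0.16 (adjusted p = 6.88e-05). The median change of the 37 from vehicle was -0.23, against -1.76 for the mitochondrially encoded members. For the 37 it was -0.20 at the medium dose and also -0.21 with Scutellariae Radix high. From low to high dose of Coptidis Rhizoma, within the set, 3 of the 37 rose and 2 fell. Their median was then -0.03 (52.4% of genes called, 25.3% lower).

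Of 17 assembly factors of complex I, 10 fell and 1 rose against vehicle at the high dose and 0 were called at the medium and low doses. Over all genes, 53.8% were called at the high dose (27.1% lower), 6.32% at the medium and 0.397% at the low dose. The counts of this list and the next are therefore not read as a response of their genes. NDUFAF7, a methyltransferase, changed by -0.61 ± 0.06 (adjusted p = 2e-11), and TIMMDC1, which acts in building the membrane arm, by 0.25 ± 0.07 (adjusted p = 0.00203). Of 21 factors of mitochondrial RNA synthesis, processing and decay, 9 fell and 1 rose at the high dose, 1 fell at the medium dose (FASTKD5, -0.22 ± 0.06, adjusted p = 0.0252) and 0 were called at the low dose. PRORP, the catalytic subunit of mitochondrial RNase P, which cuts precursors at the 5′ end of transfer RNAs, changed by -0.67 ± 0.06 (adjusted p = 7.72e-13). TRMT10C, another RNase P subunit, changed by -0.59 ± 0.08 (adjusted p = 5.06e-08), and SUPV3L1, the helicase of mitochondrial RNA decay, rose by 0.21 ± 0.05 (adjusted p = 0.000205).

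Nuclear copies of mitochondrial sequence can take reads from the members. The table held 209 pseudogene rows named after these subunits. Only MTND2P28 (chr1:629640-630683, GRCh38) was large, at 3.42% of the MT-ND2 counts, and the rows for each of the other members came to at most 0.0659% of that member. Over 1042 aligned bases MTND2P28 was 98.4% identical to MT-ND2, with 17 differences, and a stretch of both sequences shows how few bases tell them apart (capitals mark the 2 differences in it, at chrM:4716-4775 and chr1:629886-629945, plus strand).
MT-ND2: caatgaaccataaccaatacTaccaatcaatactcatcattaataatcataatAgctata
MTND2P28: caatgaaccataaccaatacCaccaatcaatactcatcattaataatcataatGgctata
MTND2P28 had 121 CPM in vehicle and 195.5, 62.6 and 38.9 CPM at the low, medium and high dose, the same order as MT-ND2. Whether its counts hold reads of MT-ND2 was not tested. Adding all pseudogene counts to their members left the number of members called the same at each Coptidis Rhizoma dose.

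The 17 groups outside Coptidis Rhizoma and the full set gave different pictures of which members varied together. Over the 51 libraries Pearson's r of log2 CPM was 0.83 for MT-ND2 with MT-ND4, 0.81 for MT-ND1 with MT-ND4 and 0.76 for MT-ND1 with MT-ND2. MT-ND4L had a negative r with MT-ND3 (r = -0.48) and MT-ND6 (r = -0.36), and r = 0.15 with MT-ND4, with which it shares a messenger RNA. The 51 include the 4 libraries that stood apart, without which r was not computed. Of these 4, Zizyphi Fructus high 3 had both the lowest MT-ND4L and the highest MT-ND3 of the 51. Over all 60 libraries, r was 0.91 for MT-ND4L with MT-ND4 and 0.95 for MT-ND2 with MT-ND5, while MT-ND4 with MT-ND5 had 0.51. These are descriptions, as values of a library share its depth and handling and libraries of a group are not independent conditions.

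Genes outside mitochondrial DNA were ranked by Pearson's r of log2 CPM with the summed heavy-strand members over the 20 group means. The highest were FAM98A (0.948), TUBGCP4 (0.945), CHORDC1 (0.945), ENSG00000280385 (0.941) and SLC36A4 (0.941). The lowest were PCK2 (-0.969), the mitochondrial phosphoenolpyruvate carboxykinase, PSPH (-0.960), the last enzyme of serine synthesis, and JDP2 (-0.959), a transcription factor of the AP-1 family. Without the 3 Coptidis Rhizoma groups r was 0.155 to 0.474 for the first 5 and -0.201 to -0.034 for the last 3, so the likeness rests on those groups. For MT-ND6 the highest were MTND2P28 (0.757), EFNA2 (0.744), LRRC37A2 (0.736), BCL11B (0.732) and PRMT7 (0.728), and the lowest were ZNF561 (-0.776), INTS12 (-0.776) and MFSD8 (-0.760). Without Coptidis Rhizoma these became -0.298 to 0.532 and -0.559 to -0.408.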

How the data were processed

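RNA sequencing (100 bp reads, directional kit) of 60 libraries was used. Values are expected counts as the authors deposited them, and the submitters' processing notes name RSEM 1.3.3, STAR 2.7.3a, Trim Galore 0.6.5, FastQC 0.11.9 and the build GRCh38. The annotation release is not given in the sources used here. The 8.75% of values that were not whole were rounded. The table held 210 columns of other samples, not used. Of its 60675 Ensembl genes, 57055 occur in GENCODE 29 and 56558 were named from a table of gene names.

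The test was that of edgeR 4.0.16 under R 4.3.3 (robust quasi-likelihood test, TMM scaling, filterByExpr, 16608 genes, 1 coefficient per group, 40 residual degrees of freedom) in 33 comparisons, each adjusted by Benjamini-Hochberg over its own genes and called below 0.05. CPM is a rounded count per 1e6 counts of its library. Members, lists and tests were chosen with earlier results of these data known; 3 comparisons with Zizyphi Fructus were added after seeing the data. All members were named; from each list, called genes of smallest p in each direction; for likeness (at least 5 CPM, prior count 2), the 5 highest and 3 lowest. MT-CYB, MT-RNR2, SLIRP, NDUFA2 and TRMT10C, outside that rule, were chosen after their values were seen. The result for 1 gene of the lists is not reported here. No 2 libraries of a group were copies (smallest chi-square per gene 2.35). Replicate numbers did not pair the samples: matched deviations correlated at -0.37 to 0.34, and all were above 0.1 in 1 of 29 comparisons. The fit was also run on simulated data with a single dispersion for all genes. That run does not bear on the spread of the members. Alternatives were DESeq2 1.42.0, other scalings, no filter, only the libraries compared, a replicate block, leaving out libraries and adding pseudogene counts.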

Additional observations from a re-analysis of the deposited data

Results flagged for a closer look

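The change from low to high dose differed between extracts for several members, tested as interaction terms in edgeR, in log2 units as Coptidis Rhizoma minus the other extract. Against Zizyphi Fructus, of the same set, the difference was -2.07 for MT-ND1 (adjusted p = 3.65e-10), -2.02 for MT-ND2 (adjusted p = 1.78e-14), -0.75 for MT-ND3 (adjusted p = 0.00389), -2.85 for MT-ND5 (adjusted p = 7.57e-18) and -2.46 for MT-ND6 (adjusted p = 9.27e-06). For MT-ND4L it was -0.48 with a 95% interval of -1.05 to 0.10, and for MT-ND4 -0.09 with -0.47 to 0.28, neither of which was called.

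Against Scutellariae Radix, of another set, it was -2.33 for MT-ND1 (adjusted p = 1.88e-11), -2.32 for MT-ND2 (adjusted p = 2.45e-16), -0.56 for MT-ND3 (adjusted p = 0.0343), -0.86 for MT-ND4L (adjusted p = 0.0175), -3.30 for MT-ND5 (adjusted p = 6.6e-20) and -2.66 for MT-ND6 (adjusted p = 2.71e-06). MT-ND3 and MT-ND4L were the weakest of these, and leaving out 1 library ended the call in 5 cases for MT-ND3 and 1 for MT-ND4L. Doses in µg/mL differed between Coptidis Rhizoma and the other extracts.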

How the results depend on the processing

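Of the 44 changes of members called in edgeR, none changed direction, and 692 of 699 values under the alternatives stayed past the threshold. A fit with the replicate number as a block left the number of members called within 1.5 times, for example 6 with no block and 7 with it for Coptidis Rhizoma high against medium, and 4 and 5 for medium against low, where the block added MT-ND4L (0.75, adjusted p = 0.0497). Fitting only the libraries compared ended the call of MT-ND6 in Coptidis Rhizoma medium against low (-1.60, adjusted p = 0.0599). MT-ND3 in Coptidis Rhizoma minus Scutellariae Radix lost its call without Scutellariae Radix high 2, Coptidis Rhizoma low 1 or 2 or Coptidis Rhizoma high 2 or 3 (-0.55 to -0.51, adjusted p 0.0559 to 0.0746), and MT-ND4L there without Scutellariae Radix low 3 (-0.75, adjusted p = 0.0573). MT-ND4 there was called without Scutellariae Radix low 2 (-0.54, adjusted p = 0.0274).

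Without the filter on low counts, Coptidis Rhizoma low against vehicle had 7 members called, 4 higher and 3 lower, so that the balance turned from lower to higher. Of all 34683 genes tested, 464 were called there. In the same setting and against vehicle, wortmannin had 4 members called, fresh ginger 3 (high) and 1 (medium), ginger 3 at each dose, Pinelliae Tuber 2, 1 and 5 from high to low, Scutellariae Radix 2, 2 and 4, and Zizyphi Fructus 1, 1 and 2. High against low dose had 1 called for fresh ginger, 2 for ginger, 1 for Pinelliae Tuber, 5 for Scutellariae Radix and 2 for Zizyphi Fructus. Scutellariae Radix medium against low had 2, and ginger minus fresh ginger 2. For the comparisons without Coptidis Rhizoma the share of all genes called in that setting is not given here, so these counts are not read as a result about the members. The approximate standard error of MT-ND6 in Coptidis Rhizoma low against vehicle was 0.06 in that setting and 0.30 with the filter. The cause was not tested. Fitting only the libraries compared called 1 member for wortmannin (MT-ND5, 0.21, adjusted p = 0.0488) and 2 for Scutellariae Radix high against low (MT-ND2, 0.27, and MT-ND5, 0.18). With all 60 libraries fitted, 20.6% and 16.3% of all genes were called in these comparisons. The shares with only the libraries compared are not given here, so these counts too are not read as a result about the members.

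Leaving out 1 library at a time gave 0 to 1 for Scutellariae Radix high against low (MT-ND2 without low 2, 0.36, adjusted p = 0.0487) and 0 to 2 for Zizyphi Fructus high against low (MT-ND4L, -0.67, and MT-ND5, -0.41, without high 1). With all 60 libraries fitted, 16.3% and 0.0482% of all genes were called in these comparisons. The shares with a library left out are not given here, so these counts are not read as a result about the members. The strand ratio, high minus low on the log2 scale, then ran from -0.199 to 0.076 for ginger, from -0.136 (without Scutellariae Radix high 1) to 0.259 for Scutellariae Radix, and from -0.086 (without Zizyphi Fructus high 3) to 0.349 for Zizyphi Fructus. With ginger the direction turned without high 2 (0.034), high 3 (0.012) or low 1. The summed share ran from -0.117 to 0.057 for fresh ginger, turning without high 2 (0.015) or low 1, and from -0.233 (without ginger low 2, adjusted p = 0.0375, exact test) to -0.054 for ginger. With MT-ND5 alone as denominator the strand ratio was 0.064 for ginger and 0.815 for Coptidis Rhizoma (exact permutation test, adjusted p = 0.05), in the opposite direction to that with all heavy-strand members. With all 12 heavy-strand protein genes it was -1.336 for Coptidis Rhizoma (exact permutation test, adjusted p = 0.05).

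Over all genes, Coptidis Rhizoma low against vehicle had 66 genes called, 464 without the filter, 25 with only the libraries compared and 32 without vehicle 1. The medium dose had 1049, and 489 with only the libraries compared, and medium against low had 216, 482 with only the libraries compared and 368 without the 4 libraries that stood apart. No scaling moved the median of all genes by over 0.1. Each member had at least 2857 counts in each library.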
